A study of Mus musculus with 63 samples.

Results

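Transcript levels of 10 transcription factors and markers of mouse pluripotent cells, Pou5f1, Sox2, Nanog, Esrrb, Klf2, Klf4, Klf5, Tbx3, Dppa3 and Zfp42, were followed in mouse embryonic stem (ES) cells without the histone H3 lysine 9 enzymes JMJD1a or G9a and under low oxygen. The genes were chosen by name, with earlier results of these data known, and every array probe annotated to one of them was taken. They are 10 of the 16593 genes on the array and are read by 16 probes, of which 15 passed the filter on low values, so that all 10 genes were tested among 8740. The probe not tested was the third for Tbx3, which was above the floor on 10 of 63 arrays. Unless another probe is named, a gene's values come from its probe with the highest mean.

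The 63 cultures came from 7 lines of TT2 (c57BL/6xCBA) ES cells kept in fetal calf serum and LIF, the cytokine that holds mouse ES cells undifferentiated. G9a KO1 cells reconstituted with a G9a transgene were 1 line (3 cultures per exposure), and G9a KO, JMJD1a KO and wild-type cells were 2 lines each (6 cultures per exposure). JMJD1a, encoded by Kdm3a, removes methyl groups from lysine 9 of histone H3, and G9a, encoded by Ehmt2, adds them. Each line was held in normoxia (21% oxygen), given 4 h of hypoxia (1% oxygen) after normoxia, or given 24 h of hypoxia. The 3 cultures of a line and exposure were seeded at 200000, 400000 and 600000 cells per plate (densities 2, 4 and 6). They thus differ in density. The p values measure the spread between these cultures, except between a knockout and wild type. There they measure the spread between the 2 lines of a genotype, pooled over G9a KO, JMJD1a KO and wild-type cells.

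In mouse ES cells Pou5f1 (also called Oct4) and Sox2 bind DNA side by side and, with Nanog, form the core of the pluripotency network. Around that core stand factors that hold the naive state, the state of the early blastocyst: the nuclear receptor Esrrb, the zinc finger proteins Klf2, Klf4 and Klf5, and the T-box factor Tbx3. Dppa3 (Stella), which protects methylated DNA in the early embryo, and Zfp42 (Rex1) are transcribed in naive cells and shut down as cells move towards the epiblast of the implanting embryo.

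The start regions were searched for recognition letters of the network's own factors and of the hypoxia response, and 4 are shown: those of Nanog, Klf4 and Zfp42, which fell in hypoxia, and that of Klf2, which moved the other way. RefSeq windows on GRCm38.p6, from 250 bases before the start to 50 bases from it on, were found for 7 of the 10 members (10 windows). The letters searched on both strands were ATGCAAA (the octamer core, 7 letters of the octamer of Pou5f1), ACAATG (Sox factors) and GGGNGTGG (Klf factors). Also searched were ACGTG and GCGTG (cores bound by hypoxia-inducible factors). Of the 32851 windows in the table, 4.63% hold the octamer core, 12.6% the Sox letters, 17.6% the Klf letters, 19.6% ACGTG and 32.4% GCGTG. Of the 10 member windows, 4 hold the octamer core, 4 the Sox letters, 4 the Klf letters, 1 ACGTG and 4 GCGTG. Both Nanog windows, which overlap, are in these counts. Each match is in capitals and lies on the printed strand or its complement.
Nanog, chr6:122707239-122707538, plus strand: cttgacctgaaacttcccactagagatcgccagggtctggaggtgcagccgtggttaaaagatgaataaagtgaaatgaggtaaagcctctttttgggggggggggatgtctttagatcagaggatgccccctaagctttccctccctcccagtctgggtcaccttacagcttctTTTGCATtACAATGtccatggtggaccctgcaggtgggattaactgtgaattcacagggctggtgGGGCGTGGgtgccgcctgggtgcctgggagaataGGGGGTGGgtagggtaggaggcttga
Zfp42, chr8:43306960-43307259, minus strand: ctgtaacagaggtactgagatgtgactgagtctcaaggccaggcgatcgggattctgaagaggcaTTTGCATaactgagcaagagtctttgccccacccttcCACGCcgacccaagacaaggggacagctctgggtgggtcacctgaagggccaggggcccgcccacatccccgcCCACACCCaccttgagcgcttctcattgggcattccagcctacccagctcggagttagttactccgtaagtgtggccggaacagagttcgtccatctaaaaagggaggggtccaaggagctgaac
Klf4, chr4:55532426-55532725, minus strand: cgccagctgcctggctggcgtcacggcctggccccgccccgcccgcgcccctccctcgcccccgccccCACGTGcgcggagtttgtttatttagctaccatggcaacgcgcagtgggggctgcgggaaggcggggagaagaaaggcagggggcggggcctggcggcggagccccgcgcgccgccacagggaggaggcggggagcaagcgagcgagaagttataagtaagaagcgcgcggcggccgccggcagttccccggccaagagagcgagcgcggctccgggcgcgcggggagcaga
Klf2, chr8:72318812-72319111, plus strand: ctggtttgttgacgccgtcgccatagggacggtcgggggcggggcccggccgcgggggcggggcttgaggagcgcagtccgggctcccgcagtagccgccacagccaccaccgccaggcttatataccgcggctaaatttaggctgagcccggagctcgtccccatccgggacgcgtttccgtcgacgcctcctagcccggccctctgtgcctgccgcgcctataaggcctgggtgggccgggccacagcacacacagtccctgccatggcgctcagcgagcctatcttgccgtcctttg

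In the Nanog window the octamer core, read on the complement at -75 to -69 from the start, is followed after 1 base by the Sox letters at -67 to -62. A Klf match at -10 to -3 holds a GCGTG at -8 to -4, and a further Klf match lies at 25 to 32. The Zfp42 window has an octamer core at -185 to -179, a GCGTG at -148 to -144 and a Klf match at -75 to -68, all on the complement. The Klf4 window has ACGTG on both strands in an overlapping stretch at -182 to -177 and none of the network's letters, and the Klf2 window has none of the letters searched. The Esrrb windows, not printed, hold a Sox match at 33 to 38 and none of the hypoxia letters, though Esrrb also fell in hypoxia. A match describes letters and is not a bound site.

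The first probe of each of the 10 members was above the floor of 4.32 (log2 of an intensity of 20) on all 63 arrays, and so were the 6 markers of pluripotent cells (Pou5f1, Sox2, Nanog, Sall4, Lin28a and Utf1). The first Kdm3a probe was at the floor in all 18 JMJD1a KO cultures, against 10.40 ± 0.24 in wild-type normoxia (SD, n = 6). Another Kdm3a probe was also at the floor in these cultures, and a further one stayed above it in each. That probe averaged 5.14 in JMJD1a KO normoxia, 5.66 after 4 h and 5.78 after 24 h, against 9.22 in wild-type normoxia. Ehmt2 does not check the G9a KO label, as its signal remained, at 7.80 ± 0.27 in G9a KO normoxia against 8.66 ± 0.22 in wild-type normoxia (SD, n = 6 each), and 8.20 ± 0.42 in the reconstituted line (SD, n = 3). In the order of the deposited table, intensities shift in 8 sets of consecutive arrays, 8 to a set and 7 in the last, which no label names. Over all genes the median share of variance was 61.5% for set, 56.1% for line and 10.8% for exposure. Lines follow each other through the sets, so no set holds knockout and wild-type cultures of the same exposure, nor 24 h and normoxia cultures of a G9a KO or JMJD1a KO line. Results are therefore given also with array set as a block in the fit ("with the block"), and within a set where it holds both exposures of a line.

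**Figure D1:**
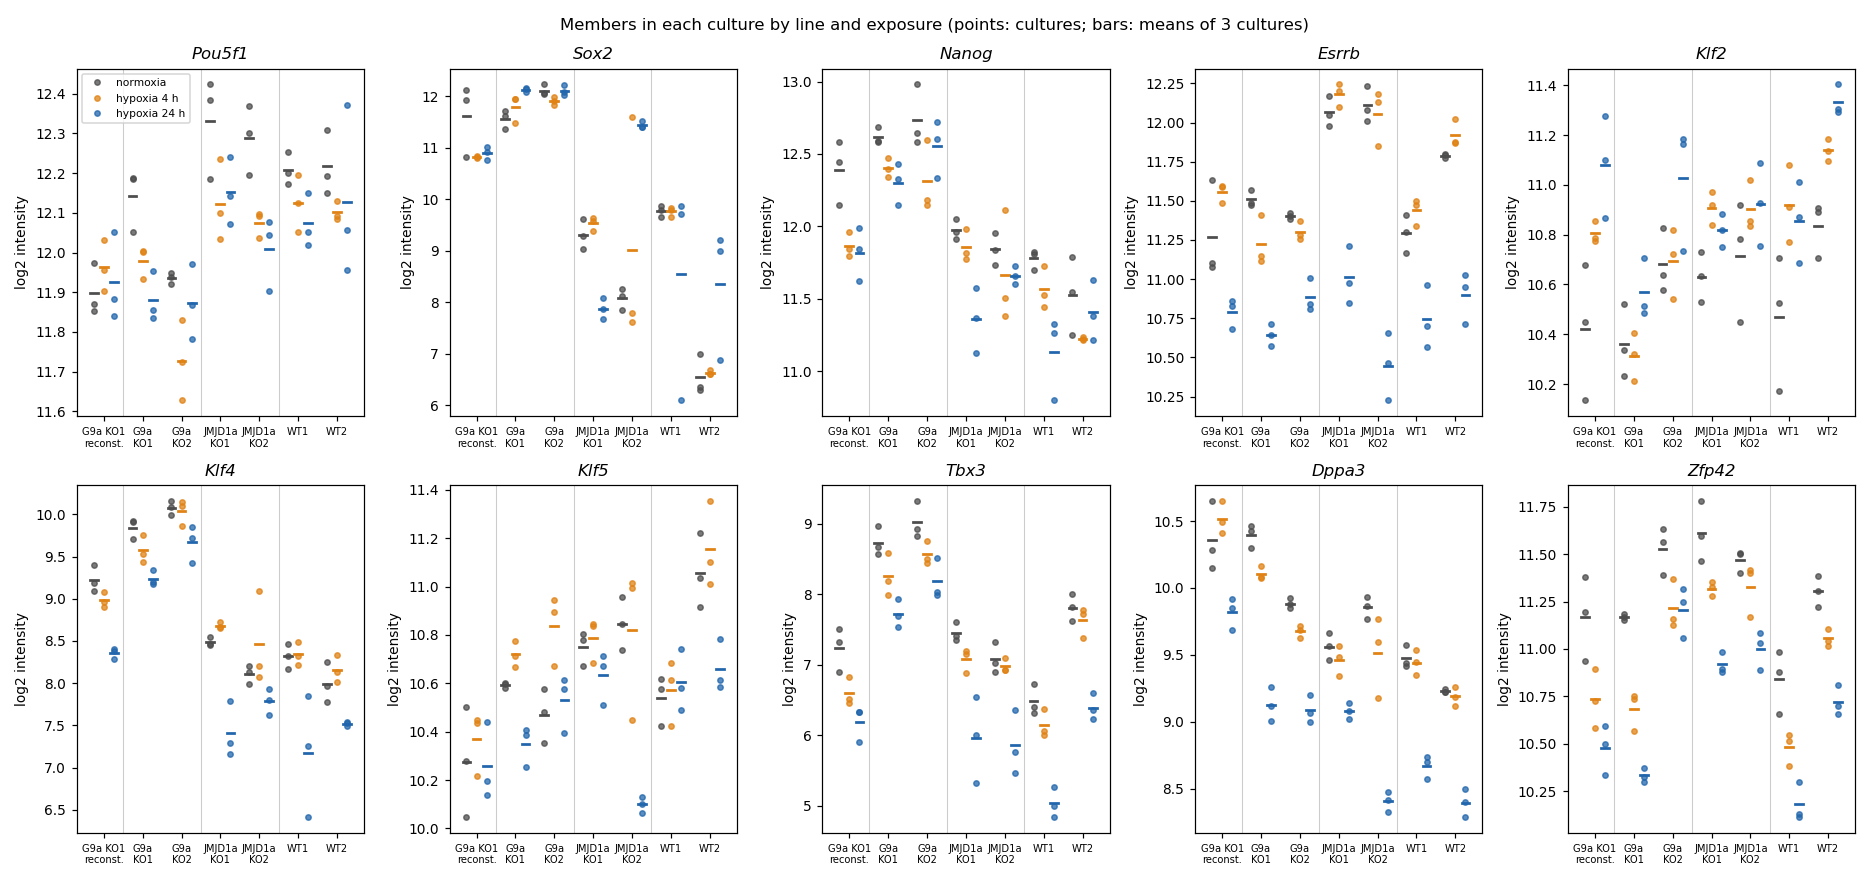
Log2 intensity (y axis) of each of the 10 members in every culture (points), with the mean of 3 cultures (bars), by line (x axis) from the reconstituted line on the left to wild type on the right, with normoxia, 4 h and 24 h of hypoxia side by side. The means of Esrrb, Klf4, Tbx3, Dppa3 and Zfp42 are lower after 24 h of hypoxia than in normoxia in all 7 lines.

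After 24 h of hypoxia, Nanog, Esrrb, Klf4, Tbx3, Dppa3 and Zfp42 fell and Klf2 rose relative to normoxia in reconstituted, G9a KO, JMJD1a KO and wild-type cells, each at an adjusted p under 0.05 in each genotype. The median change of the 10 members was -0.56 log2 in reconstituted, -0.38 in G9a KO, -0.51 in JMJD1a KO and -0.50 in wild-type cells, while the median of all genes lay between 0 and 0.02. Tests are limma fits over all 8740 genes and 63 arrays, with a mean for each line and exposure and a density term, and p values adjusted by Benjamini and Hochberg over all genes.

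Tbx3, a factor that holds ES cells undifferentiated, had the largest wild-type change of the 10. In the reconstituted line it was at 6.33, 6.34 and 5.90 after 24 h, against 7.51, 7.32 and 6.90 in normoxia, at densities 2, 4 and 6 (-1.05 ± 0.17, SE, adjusted p = 4.45e-06). G9a KO cells averaged 7.95 ± 0.34 after 24 h and 8.87 ± 0.26 in normoxia (SD, n = 6 each), a change of -0.93 ± 0.12 (adjusted p = 2.18e-08). JMJD1a KO cells averaged 5.91 ± 0.49 after 24 h and 7.27 ± 0.26 in normoxia (SD, n = 6 each), a change of -1.36 ± 0.12 (adjusted p = 1.2e-12). The exposures did not overlap in any of these 3 genotypes. Of all genes, 11.7% in reconstituted, 9.47% in G9a KO, 8.88% in JMJD1a KO and 4.32% in wild-type cells were lower after 24 h with no overlap. WT1 had 5.26, 4.84 and 5.00 after 24 h, against 6.73, 6.40 and 6.31 in normoxia. WT2 had 6.59, 6.22 and 6.36 after 24 h, against 7.61, 8.00 and 7.81 in normoxia. Every wild-type culture was lower after 24 h than each normoxia culture of its own line, though the 2 lines differ so much that the pooled groups overlap (-1.43 ± 0.12, adjusted p = 3.82e-13).

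Dppa3 did not overlap between 24 h and normoxia in any genotype. The reconstituted cultures had 9.92, 9.85 and 9.69 after 24 h, against 10.15, 10.28 and 10.65 in normoxia, at densities 2, 4 and 6 (-0.54 ± 0.10, adjusted p = 3.34e-05). The lowest, median and highest G9a KO values were 8.99, 9.09 and 9.26 after 24 h, against 9.85, 10.11 and 10.46 in normoxia (-1.03 ± 0.07, adjusted p = 2.43e-16). JMJD1a KO cells had 8.32, 8.75 and 9.14 after 24 h, against 9.46, 9.72 and 9.93 in normoxia (-0.97 ± 0.07, adjusted p = 2.85e-15). Wild-type cells had 8.29, 8.53 and 8.73 after 24 h, against 9.22, 9.33 and 9.58 in normoxia (-0.82 ± 0.07, adjusted p = 5.47e-13).

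Esrrb, a nuclear receptor that can stand in for Nanog in ES cells, likewise separated the 2 exposures in each genotype. The reconstituted line had 10.83, 10.68 and 10.86 after 24 h, against 11.10, 11.08 and 11.63 in normoxia (-0.48 ± 0.11, adjusted p = 0.000689). G9a KO cells averaged 10.76 ± 0.16 after 24 h and 11.46 ± 0.07 in normoxia (-0.69 ± 0.08, adjusted p = 9.01e-10). In JMJD1a KO cells the lowest, median and highest were 10.23, 10.75 and 11.21 after 24 h, against 11.98, 12.06 and 12.24 in normoxia (-1.36 ± 0.08, adjusted p = 2.04e-18). JMJD1a KO cells thus had the highest mean of the 4 genotypes in normoxia and not after 24 h. WT1 had 10.70, 10.57 and 10.96 after 24 h, against 11.17, 11.30 and 11.41 in normoxia. WT2 had 10.95, 10.71 and 11.03 after 24 h, against 11.80, 11.79 and 11.77 in normoxia. The wild-type change was -0.72 ± 0.08 (adjusted p = 5.92e-10).

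Among the Klf factors, Klf4 fell and Klf2 rose. Klf4, which acts downstream of LIF and Stat3, changed by -0.87 ± 0.19 in reconstituted, -0.51 ± 0.13 in G9a KO, -0.70 ± 0.13 in JMJD1a KO and -0.81 ± 0.13 in wild-type cells (adjusted p = 0.000282, 0.00159, 2.9e-05 and 3.54e-06). Its lowest, median and highest wild-type values were 6.41, 7.51 and 7.84 after 24 h, against 7.77, 8.21 and 8.46 in normoxia, a slight overlap. Without JMJD1a KO1 its JMJD1a KO change was -0.33 (adjusted p = 0.16), and without G9a KO1 its G9a KO change was -0.41 (adjusted p = 0.133). Klf2, a relative that also helps to hold the naive state, was at 10.87, 11.10 and 11.28 after 24 h in the reconstituted line, against 10.13, 10.45 and 10.68 in normoxia (0.66 ± 0.10, adjusted p = 1.4e-06). Klf2 rose by 0.28 ± 0.07 in G9a KO and 0.20 ± 0.07 in JMJD1a KO cells (adjusted p = 0.00136 and 0.0203). With fewer cultures these 2 rises missed the threshold: the change was 0.21 without G9a KO2 (adjusted p = 0.0849), and 0.21 without JMJD1a KO1 and 0.19 without JMJD1a KO2 (adjusted p = 0.101 and 0.167). Without density 4 the G9a KO change was 0.19 (adjusted p = 0.19). The JMJD1a KO change was 0.16 without density 2 and 0.20 without density 4 (adjusted p = 0.109 and 0.161). Wild-type Klf2 had 10.68, 11.15 and 11.40 after 24 h, against 10.17, 10.71 and 10.91 in normoxia (0.44 ± 0.07, adjusted p = 2.48e-06).

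Klf5, a further member of the family, changed by -0.02 ± 0.11 in reconstituted, -0.09 ± 0.08 in G9a KO, -0.43 ± 0.08 in JMJD1a KO and -0.17 ± 0.08 in wild-type cells. The JMJD1a KO change was the one past the threshold (adjusted p = 6.4e-06), and without JMJD1a KO2 it was -0.12 (adjusted p = 0.341). Zfp42 changed by -0.70 ± 0.10 in reconstituted, -0.58 ± 0.07 in G9a KO, -0.58 ± 0.07 in JMJD1a KO and -0.62 ± 0.07 in wild-type cells (adjusted p = 1.83e-07, 1.46e-09, 1.64e-09 and 3.99e-10). Its wild-type values ran from 10.11 to 10.81 after 24 h, against 10.66 to 11.39 in normoxia, a narrow overlap.

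Of the core factors, Nanog changed by -0.57 ± 0.14 in reconstituted, -0.25 ± 0.10 in G9a KO, -0.40 ± 0.10 in JMJD1a KO and -0.39 ± 0.10 in wild-type cells (adjusted p = 0.00124, 0.0379, 0.000951 and 0.00193). Its call depended on single lines. The change was -0.18 without G9a KO1 and -0.32 without G9a KO2 (adjusted p = 0.423 and 0.0733), -0.18 without JMJD1a KO1 (adjusted p = 0.308) and -0.12 without WT1 (adjusted p = 0.578). Pou5f1 changed by 0.03 ± 0.08 in reconstituted, -0.16 ± 0.05 in G9a KO, -0.23 ± 0.05 in JMJD1a KO and -0.11 ± 0.05 in wild-type cells, and passed the test in G9a KO and JMJD1a KO cells (adjusted p = 0.0113 and 0.000408). Without G9a KO1 the G9a KO change was -0.06 (adjusted p = 0.644), and without JMJD1a KO2 the JMJD1a KO change was -0.18 (adjusted p = 0.077). Leaving out 1 density also ended calls at 24 h for Nanog and Klf4 in the reconstituted line, for Pou5f1, Nanog, Klf2 and Klf4 in G9a KO cells and for Klf2 in JMJD1a KO cells. Esrrb, Tbx3, Dppa3 and Zfp42 kept their call in all 4 genotypes without any 1 line or density.

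Counted over the 10 members, 1 rose and 6 fell in the reconstituted line, where 23.6% of all genes rose and 15.4% fell. In G9a KO cells 1 rose and 7 fell, against 21.2% and 24.8% of all genes. In JMJD1a KO cells 1 rose and 8 fell, against 22.5% and 27.5%, and in wild-type cells 1 rose and 6 fell, against 18% and 18.9%. The member that rose was Klf2 each time, so falls were more frequent among the members than among all genes and rises were not. As the genes were chosen with earlier results of these data known, this is a description and not a test. These counts and the medians above hold the first Sox2 probe, which array set dominates, as given below. With the second Sox2 probe in its place, 6 members fell in reconstituted, 8 in G9a KO, 9 in JMJD1a KO and 7 in wild-type cells, with medians of -0.51, -0.54, -0.60 and -0.50.

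With the block, 6 members were called in the reconstituted line (20% of all genes in either direction), with Nanog at -0.40 (adjusted p = 0.0758) the one lost. In G9a KO cells Esrrb (-0.54), Dppa3 (-0.96) and Zfp42 (-0.54) were called, against 19.4% of all genes. Tbx3 was there at -0.71, Klf2 at 0.40 and Klf4 at -0.48 (adjusted p = 0.0512, 0.0642 and 0.0706). In JMJD1a KO cells 7 were called (15.7% of all genes), with Pou5f1 at -0.20 and Klf5 at -0.18 lost, and in wild-type cells the same 7 as without the block (35.9%). Within the last set, the reconstituted line gave 24 h minus normoxia differences of -0.71 for Tbx3, -0.83 for Dppa3, -0.84 for Esrrb and 0.40 for Klf2 (3 cultures against 1). Within set 1, WT1 gave -1.43, -0.82, -0.66 and 0.38 for these genes (2 cultures against 3), and within set 2, WT2 gave -1.22, -0.73, -0.84 and 0.46 (1 against 3). The wild-type differences within a set thus had the direction of the whole fit for these genes.

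**Figure D2:**
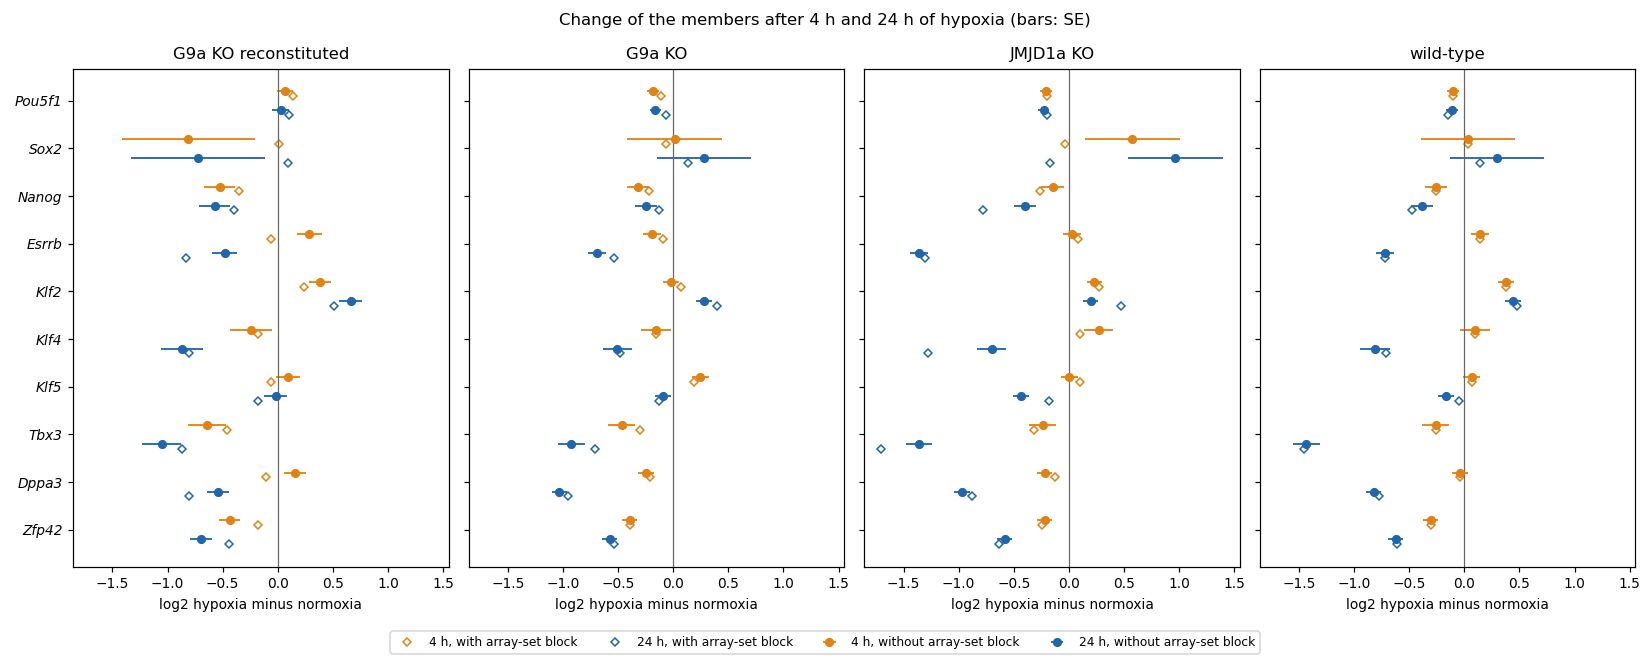
Log2 hypoxia minus normoxia (x axis) of the 10 members in reconstituted, G9a KO, JMJD1a KO and wild-type cells (panels), after 4 h (orange) and 24 h (blue), without the array-set block (filled, with SE bars) and with it (open). After 24 h Esrrb, Klf4, Tbx3, Dppa3 and Zfp42 lie left of 0 in every panel and Klf2 lies right of it.

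At 4 h fewer members were called than at 24 h in each genotype. Zfp42 was the member called in all 4 genotypes, and Klf2 rose in all but G9a KO cells. In the reconstituted line Klf2 changed by 0.39 ± 0.10, Esrrb by 0.29 ± 0.11, Nanog by -0.53 ± 0.14, Tbx3 by -0.64 ± 0.17 and Zfp42 by -0.44 ± 0.10 (adjusted p = 0.00243, 0.0411, 0.0031, 0.00301 and 0.000361). These are 2 up and 3 down, against 22.9% and 14.5% of all genes. With the block none of the 10 was called, though 15.5% of all genes were, and Esrrb stood at -0.06 ± 0.12. Of the 3 normoxia arrays of this line, 2 lie in the set before its hypoxia arrays. Without density 4 no member passed the threshold, though Klf2 at 0.41, Nanog at -0.46, Tbx3 at -0.53 and Zfp42 at -0.41 were near their values with all cultures, while Esrrb was at 0.18 (adjusted p = 0.0713, 0.123, 0.165, 0.052 and 0.503). Without density 2 Zfp42 alone was called, with Klf2 at 0.26 and Esrrb at 0.24 (adjusted p = 0.12 and 0.255).

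In G9a KO cells Klf2 averaged 10.50 ± 0.24 after 4 h and 10.52 ± 0.21 in normoxia (SD, n = 6 each), a change of -0.02 ± 0.07 (adjusted p = 0.918). Klf5 rose by 0.25 ± 0.08 with no overlap between the groups (adjusted p = 0.00892; 6.48% of all genes were higher with no overlap), and Zfp42 changed by -0.40 ± 0.07 (adjusted p = 7.38e-06). Tbx3 at -0.47, Nanog at -0.32, Dppa3 at -0.25 and Pou5f1 at -0.18 were also called, so 1 member rose and 5 fell, against 16.2% and 17.5% of all genes. With the block Zfp42 alone was called (-0.39, adjusted p = 0.0418), where 12% of all genes were. Leaving out G9a KO1 left 4 members called, leaving out G9a KO2 left 2 and leaving out density 4 left 1. Tbx3 was at -0.46, -0.48 and -0.46 in these fits, while Klf5 was at 0.13 without G9a KO2 (adjusted p = 0.0671, 0.0543, 0.0705 and 0.488).

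In JMJD1a KO cells Klf2 rose by 0.23 ± 0.07 (adjusted p = 0.0104), and Pou5f1, Dppa3 and Zfp42 changed by -0.21, -0.22 and -0.22 (adjusted p = 0.00188, 0.0143 and 0.0117). That is 1 up and 3 down, against 13.5% and 16.9% of all genes. With the block 5 were called (32.3% of all genes): Pou5f1, Klf2 and Zfp42 again, with Nanog at -0.26 and Tbx3 at -0.31. Without density 4 no member passed the threshold, with Klf2 at 0.22, Pou5f1 at -0.22, Dppa3 at -0.27 and Zfp42 at -0.24 (adjusted p = 0.158, 0.0505, 0.0729 and 0.0976). Klf2 missed it at 0.19 without JMJD1a KO1 and at 0.28 without JMJD1a KO2 (adjusted p = 0.232 and 0.0517), and Pou5f1 at -0.21 without JMJD1a KO2 (adjusted p = 0.0578). Zfp42 was smaller, at -0.14, without JMJD1a KO1, and Dppa3 at -0.10 without JMJD1a KO2 (adjusted p = 0.343 and 0.572).

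In wild-type cells Klf2 had a lowest, median and highest value of 10.77, 11.09 and 11.19 after 4 h, against 10.17, 10.71 and 10.91 in normoxia (0.38 ± 0.07, adjusted p = 5.76e-05). Zfp42 was at 10.38, 10.78 and 11.11 after 4 h, against 10.66, 11.10 and 11.39 in normoxia (-0.30 ± 0.07, adjusted p = 0.000509). Nanog changed by -0.26 ± 0.10, at the edge of the threshold (adjusted p = 0.049). Without WT1 the Nanog and Zfp42 changes were -0.30 and -0.25 (adjusted p = 0.162 and 0.0711), and without WT2 the Nanog change was -0.21 (adjusted p = 0.333). Esrrb changed by 0.14 ± 0.08, Dppa3 by -0.04 ± 0.07, Klf4 by 0.10 ± 0.13 and Tbx3 by -0.26 ± 0.12, none past the threshold. So 1 member rose and 2 fell, against 14.4% and 13% of all genes, and the same 3 were called with the block (35.6%).

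Between 4 h and 24 h, Esrrb, Klf4, Tbx3, Dppa3, Klf5 and Zfp42 fell in G9a KO, JMJD1a KO and wild-type cells. In G9a KO cells 24 h minus 4 h was -0.79 ± 0.07 for Dppa3, -0.50 ± 0.08 for Esrrb, -0.46 ± 0.12 for Tbx3, -0.35 ± 0.13 for Klf4, -0.34 ± 0.08 for Klf5 and -0.18 ± 0.07 for Zfp42. Klf2 rose in this interval, by 0.30 ± 0.07 (adjusted p = 0.000893). So 7 members were called (37.2% of all genes), and 6 with the block (44.3%), where Zfp42 was lost. Both lines had these times within a set: G9a KO1 gave -0.95 for Dppa3, -0.49 for Esrrb and -0.37 for Tbx3 (3 cultures against 2), and G9a KO2 gave -0.59, -0.42 and -0.38 (3 against 3). Without G9a KO1 the changes of Zfp42 (-0.01), Klf4 (-0.37) and Tbx3 (-0.38) missed the threshold, as did that of Klf4 without G9a KO2 (-0.33).

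In JMJD1a KO cells 7 members fell between 4 h and 24 h (34.8% of all genes were called), and 6 with the block (15.3%), where Klf5 was lost. Esrrb changed by -1.39 ± 0.08, Tbx3 by -1.12 ± 0.12, Klf4 by -0.97 ± 0.13 and Dppa3 by -0.75 ± 0.07, each with no overlap between the times (4.76% of all genes were lower with no overlap). Within set 5, JMJD1a KO2 gave -1.40 for Esrrb, -1.23 for Tbx3, -1.31 for Klf4 and -0.77 for Dppa3 (3 cultures against 1). Nanog (-0.25, adjusted p = 0.0465) differed by -0.01 without JMJD1a KO1, and Klf5 (-0.44) by -0.16 without JMJD1a KO2.

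In wild-type cells 24 h minus 4 h was -1.17 ± 0.12 for Tbx3, -0.91 ± 0.13 for Klf4, -0.86 ± 0.08 for Esrrb and -0.78 ± 0.07 for Dppa3. Esrrb, Klf4 and Dppa3 did not overlap between the times (2.73% of all genes were lower with no overlap), and Klf2 differed by 0.07 ± 0.07 and Nanog by -0.13 ± 0.10, neither past the threshold. In all, 6 members were called and 5 with the block, against 26.5% and 25.3% of all genes. Klf5 (-0.23) was the one lost, and without WT2 its change was 0.03.

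Sox2 could not be read from its first probe. That probe ran from 6.09 to 12.23, and array set accounted for 99.2% of its variance, against 74% for line and 0.597% for exposure. Between neighbouring arrays of 1 line and exposure the median step was 2.12 log2 in the 5 pairs that crossed a set border and 0.143 in the 37 pairs that did not. WT2 averaged 8.36 after 24 h and 6.55 in normoxia, while WT1 averaged 8.55 after 24 h and 9.78 in normoxia. The JMJD1a KO change at 24 h was 0.97 ± 0.43 with both lines and -1.43 without JMJD1a KO2. Probes of other members had smaller steps at the borders. Across borders and within sets they were 0.328 and 0.101 for Esrrb, 0.298 and 0.113 for Nanog, and 0.215 and 0.0734 for the second Pou5f1 probe. For Klf2, Zfp42 and the second Tbx3 probe the step across borders was the smaller.

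The second Sox2 probe ran from 7.55 to 9.20, with median steps of 0.0806 across set borders and 0.0756 within sets. Array set accounted for 63.2% of its variance, line for 43.9% and exposure for 31.1%. On it Sox2 fell at both times in G9a KO, JMJD1a KO and wild-type cells. The reconstituted line changed by -0.05 ± 0.12 after 4 h and -0.11 ± 0.12 after 24 h, neither called (fit over 12754 probes, adjusted p = 0.812 and 0.522). G9a KO cells changed by -0.55 and -0.58 (adjusted p = 8.77e-07 and 1.62e-07), and JMJD1a KO cells by -0.54 and -0.63 (adjusted p = 1.73e-06 and 4.04e-08). Lowest, median and highest wild-type values were 8.59, 8.90 and 9.13 in normoxia, 8.46, 8.53 and 8.63 after 4 h, and 8.50, 8.54 and 8.59 after 24 h. The wild-type changes were -0.35 ± 0.08 and -0.34 ± 0.08 (adjusted p = 0.00105 and 0.00127), so the level reached at 4 h was held at 24 h. With the block these 6 changes stayed called except that of G9a KO cells at 24 h (-0.38, adjusted p = 0.0705).

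Further probes of other members gave these values. For the second Pou5f1 probe array set accounted for 85.8% of the variance. The second Pou5f1 probe changed by -0.18 after 4 h and 0.01 after 24 h in the reconstituted line, neither called, by -0.35 and -0.23 in G9a KO, -0.39 and -0.47 in JMJD1a KO, and -0.28 and -0.21 in wild-type cells, all called. With the block 3 of these 6 calls were lost: G9a KO at both times and JMJD1a KO at 24 h, while the reconstituted line was called at 4 h (-0.35, adjusted p = 0.0212). The second Tbx3 probe changed at 24 h by -0.85 in reconstituted, -1.02 in G9a KO, -1.20 in JMJD1a KO and -1.37 in wild-type cells, called in each with and without the block. The second Klf4 probe changed at 24 h by -0.30 ± 0.14 in the reconstituted line, which missed the threshold (adjusted p = 0.0877), and by -0.55 in G9a KO, -1.13 in JMJD1a KO and -0.82 in wild-type cells. At 4 h it rose in the reconstituted line (0.59 ± 0.14, adjusted p = 0.000713), where the first Klf4 probe was at -0.25 ± 0.19, so the Klf4 probes differ in sign there. The third Klf4 probe, above the floor on 52 arrays, also rose there (0.80 ± 0.21, adjusted p = 0.00303). After 24 h it was at the floor on 2 of 3 reconstituted, 1 of 6 G9a KO, 4 of 6 JMJD1a KO and 2 of 6 wild-type arrays, so its 24 h changes are not given. In either direction the probe fit called 36.5% of probes in reconstituted, 33.8% in G9a KO, 31.8% in JMJD1a KO and 27.4% in wild-type cells at 4 h. At 24 h it called 37.1%, 44.6%, 49.9% and 35.7% in the same order. With the block it called 15.3%, 12.6%, 33.6% and 35.8% at 4 h, and 19%, 18.7%, 14.7% and 34.4% at 24 h.

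**Figure D3:**
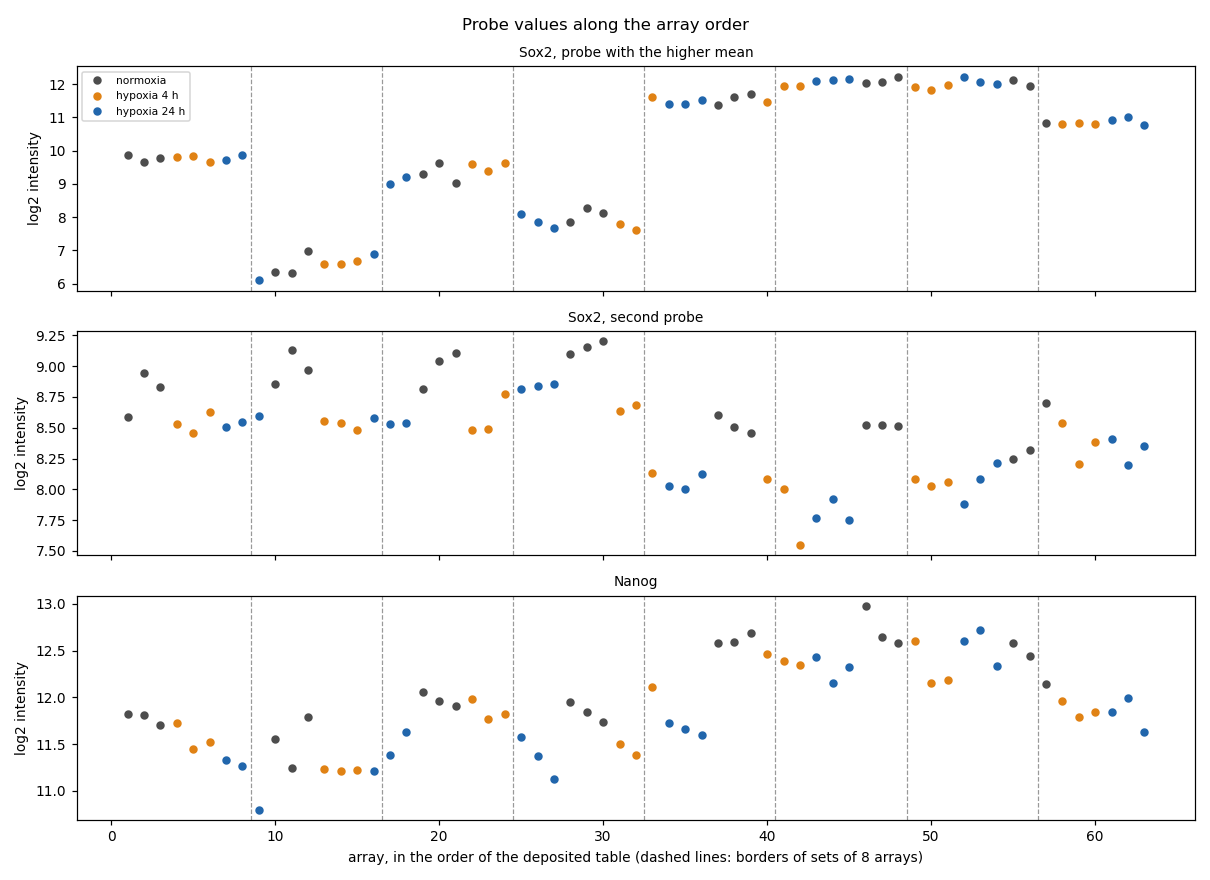
Log2 intensity (y axis) of the first Sox2 probe, the second Sox2 probe and Nanog in each of the 63 arrays in the order of the deposited table (x axis), coloured by exposure, with dashed lines at the borders of the array sets. The first Sox2 probe steps at the borders, by a median of 2.12, against 0.0806 for the second probe.

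The comparison of genotypes asks whether the levels differ without G9a or JMJD1a. G9a KO cells had more Klf4 and Nanog signal than wild-type cells at every exposure. Lowest, median and highest Klf4 values were 9.70, 9.96 and 10.15 in G9a KO normoxia, against 7.77, 8.21 and 8.46 in wild-type normoxia. The difference was 1.81 ± 0.20 in normoxia, 1.55 ± 0.19 after 4 h and 2.11 ± 0.24 after 24 h (limma on line means, adjusted p = 0.0178, 0.011 and 0.0323). This fit sets 2 lines against 2 and takes its spread from the G9a KO, JMJD1a KO and wild-type lines together. Nanog had 12.58, 12.62 and 12.98 in G9a KO normoxia, against 11.25, 11.75 and 11.83 in wild-type normoxia. Its difference was 1.02 ± 0.12, 0.96 ± 0.15 and 1.16 ± 0.18 at the 3 exposures (adjusted p = 0.0188, 0.0154 and 0.045). These 2 members were called at each exposure, where 23.4%, 34.3% and 6.78% of all genes were. The median of all genes was -0.12, -0.14 and -0.13.

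Tbx3 and Dppa3 were also higher in every G9a KO culture than in every wild-type culture of the same exposure, without passing the test. In that direction 16%, 16.5% and 17.8% of all genes did not overlap in normoxia, after 4 h and after 24 h. Tbx3 had 8.56, 8.87 and 9.32 in G9a KO normoxia, against 6.31, 7.17 and 8.00 in wild-type normoxia (1.73 ± 0.49, adjusted p = 0.0725). After 24 h the Tbx3 difference was 2.24 ± 0.49 (adjusted p = 0.063). Dppa3 averaged 10.14 ± 0.29 in G9a KO normoxia and 9.35 ± 0.15 in wild-type normoxia (SD, n = 6 each), a difference of 0.79 ± 0.23 (adjusted p = 0.0749). Esrrb, Klf2, Klf5, Zfp42 and Pou5f1 differed by -0.08, -0.13, -0.27, 0.28 and -0.17 in normoxia, none called. The first Sox2 probe differed by 3.67 ± 1.22 and the second by -0.37 ± 0.10 in normoxia, with opposite signs. After 4 h the second Sox2 probe (-0.56 ± 0.09) and the second Pou5f1 probe (-0.72 ± 0.13) were lower in G9a KO cells (fit over probes, adjusted p = 0.0159 and 0.0202), where 35.1% of all probes were called.

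Genotype and array set cannot be told apart here, since G9a KO and wild-type cultures share no set. With the block, which links them through the lines in between, Nanog differed by 0.04 ± 0.41, 0.07 ± 0.46 and 0.38 ± 0.45 at the 3 exposures (adjusted p = 0.983, 0.97 and 0.734). Klf4 differed by 1.03 ± 0.42, 0.78 ± 0.48 and 1.26 ± 0.47 (adjusted p = 0.18, 0.498 and 0.133). Its second probe, without the block, differed by 0.90, 0.61 and 1.16, none called. Dppa3 in normoxia was the member called with the block (1.21 ± 0.29, adjusted p = 0.00758), and none was called after 4 h or 24 h. Of all genes 3.7%, 2.12% and 4.02% were called in normoxia, after 4 h and after 24 h. The fit with the block takes cultures of 1 line as independent, which they are not. Its p values do not measure the spread between lines. With 1 of the 4 lines left out, 0 members were called in normoxia without G9a KO1 or G9a KO2, 4 without WT1 and 2 without WT2. After 4 h the counts were 2, 1, 6 and 4 in the same order, and after 24 h 0 each. Such a fit sets 1 line against 2, takes the lone line to vary like the others and has fewer residual degrees of freedom. The differences themselves stayed near those with all lines. Where their call was lost, Klf4 was at 1.92, 1.69 and 1.65 in normoxia without G9a KO1, G9a KO2 and WT2. After 24 h Klf4 was between 1.89 and 2.32, and Nanog between 1.02 and 1.30, over the 4 lines left out.

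JMJD1a KO and wild-type cells differed past the threshold in no member at any exposure. The test called 1 gene, 0.0114% of all, in normoxia, and likewise 0.0114% after 4 h and 0.0114% after 24 h. At an unadjusted p under 0.05, 1 of the 10 members passed in normoxia, 0 after 4 h and 0 after 24 h. Of all 8740 genes, 379, 503 and 541 passed in the same order. Esrrb averaged 12.09 ± 0.10 in JMJD1a KO normoxia and 11.54 ± 0.28 in wild-type normoxia (SD, n = 6 each), with no overlap, a difference of 0.55 ± 0.18 (adjusted p = 1). In that direction 1.12% of all genes did not overlap in normoxia, 0.538% after 4 h and 1.05% after 24 h. Zfp42 differed by 0.47 ± 0.22, 0.56 ± 0.27 and 0.51 ± 0.36 at the 3 exposures, with no overlap at any of them (adjusted p = 1, 0.962 and 0.876). Klf2, Klf5, Pou5f1 and Tbx3 differed in normoxia by 0.02 ± 0.18, 0.00 ± 0.19, 0.10 ± 0.09 and 0.12 ± 0.49.

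Whether the genotypes differed in their response to hypoxia was tested as the knockout response minus the wild-type response, again on line means. No member passed in G9a KO cells after 4 h (0.0801% of all genes called) or 24 h (0%), or in JMJD1a KO cells after 4 h (0%) or 24 h (0%). At an unadjusted p under 0.05, 2 members passed for G9a KO after 4 h and 1 after 24 h, and 0 and 0 for JMJD1a KO. Of all 8740 genes, 1084, 553, 416 and 229 passed in the same order. Klf2 in G9a KO cells after 4 h gave -0.40 ± 0.08 (adjusted p = 0.21), and Tbx3 in G9a KO cells after 24 h gave 0.51 ± 0.15 (adjusted p = 0.608). Esrrb in JMJD1a KO cells after 24 h gave -0.64 ± 0.28 (adjusted p = 1). With the block, where cultures and not lines are the unit, it gave -0.59 ± 0.16 (adjusted p = 0.0532).

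The reconstituted line was set against its parent G9a KO1, 1 line against 1 with 3 cultures each, to see the levels with G9a put back. Tbx3 stood apart throughout. In normoxia it was at 7.51, 7.32 and 6.90 in the reconstituted line, against 8.96, 8.66 and 8.56 in G9a KO1. After 4 h it was at 6.52, 6.46 and 6.83 in the reconstituted line, against 8.59, 8.18 and 7.99 in G9a KO1. After 24 h it was at 6.33, 6.34 and 5.90 in the reconstituted line, against 7.93, 7.69 and 7.53 in G9a KO1. The lines did not overlap at any exposure, where 13.9%, 23.5% and 24.6% of all genes were lower in the reconstituted line with no overlap. The differences were -1.49 ± 0.17, -1.65 ± 0.17 and -1.53 ± 0.17 (adjusted p = 2.33e-09, 1.07e-10 and 6.2e-10). The second Tbx3 probe gave -1.60 ± 0.16, -1.65 ± 0.16 and -1.20 ± 0.16.

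Klf4 was lower in the reconstituted line by first-probe differences of -0.62 ± 0.19, -0.59 ± 0.19 and -0.88 ± 0.19, each called. Its second probe gave -0.48, 0.34 and -0.10 (fit over probes, adjusted p = 0.0069, 0.0354 and 0.594), with the opposite sign after 4 h. The second Sox2 probe differed by -0.10 in normoxia, not called, and was higher in the reconstituted line by 0.49 after 4 h and 0.50 after 24 h (adjusted p = 0.000574 and 0.000407). At the 3 exposures 25.4%, 52.1% and 54.1% of all probes were called. Nanog differed by -0.23 ± 0.14 in normoxia, not called, and by -0.53 ± 0.14 after 4 h and -0.48 ± 0.14 after 24 h. Dppa3 differed by -0.04 ± 0.10 in normoxia and was higher in the reconstituted line by 0.41 ± 0.10 after 4 h and 0.69 ± 0.10 after 24 h. Klf2 differed by 0.06 ± 0.10 in normoxia and was higher by 0.49 ± 0.10 and 0.51 ± 0.10 in hypoxia. In all, 4 members were called in normoxia, 7 after 4 h and 5 after 24 h, against 28.2%, 54.4% and 55.5% of all genes.

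The reconstituted line and G9a KO1 share no array set, so line and set cannot be told apart. With the block Klf5 after 4 h was the member called (-0.73 ± 0.21, adjusted p = 0.026), and none in normoxia or after 24 h, where 3.83%, 7.15% and 7.08% of all genes were called in normoxia, after 4 h and after 24 h. First-probe Tbx3 was then at -0.97 ± 0.54, -1.13 ± 0.43 and -1.13 ± 0.40 (adjusted p = 0.425, 0.109 and 0.084). Its second probe was at -1.51, -1.83 and -1.46 (fit over probes, adjusted p = 0.1, 0.0026 and 0.013), where 3.25%, 6.01% and 6.02% of all probes were called.

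Over the 3 seeding densities Klf2 and Tbx3 had slopes of opposite sign. For each further 200000 cells per plate Klf2 changed by 0.10 ± 0.02 and Tbx3 by -0.16 ± 0.03 (adjusted p = 5.67e-05 and 0.000173), where 32.7% of all genes had a slope past the threshold. In reconstituted normoxia cultures, for example, Klf2 was at 10.13, 10.45 and 10.68 and Tbx3 at 7.51, 7.32 and 6.90 at densities 2, 4 and 6. The array at density 6 lies in the last array set and the others in the set before. Density and set cannot be told apart in that step. With the block 5 members were called (37.8% of all genes), adding Nanog (-0.07), Klf4 (-0.07) and Klf5 (0.07). Slopes of further probes were -0.15 ± 0.03 for Tbx3 and -0.12 ± 0.03 and -0.15 ± 0.04 for Klf4. Without density 2 no member was called, and the slopes were 0.02 for Klf2 and -0.07 for Tbx3 (adjusted p = 0.874 and 0.585), so both slopes rest on the lowest density. Without density 6 or WT2 there were 4, and without JMJD1a KO2 there were 5.

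The order of the levels followed genotype for the first Klf4 probe and exposure for Esrrb. For Klf4 the 3 highest of the 12 group means were those of G9a KO cells (9.96 in normoxia, 9.80 after 4 h and 9.45 after 24 h), then the reconstituted line in normoxia (9.23) and after 4 h (8.98). The other 7 groups lay at 8.57 or below. For Esrrb the 24 h means of reconstituted, G9a KO, JMJD1a KO and wild-type cells, at 10.79, 10.76, 10.73 and 10.82, differed from each other by less than any of their SDs and lay below the means of all groups in normoxia and after 4 h. Over the 63 arrays, exposure accounted for 63.1% of the variance of Esrrb, 43.8% for Dppa3, 37.5% for Zfp42, 26.3% for Klf2, 23.4% for Tbx3, 20.4% for Klf5, 15.2% for Pou5f1, 14.9% for Klf4 and 11% for Nanog. Line accounted for 76.1% for Klf4, 73% for Nanog and 70.3% for Tbx3, but 19.1% for Esrrb. Array set accounted for 65.1% for the first Klf4 probe and 30.7% for Esrrb. On the second Klf4 probe line accounted for 43.7% and exposure for 41.1%, and on the third for 20.5% and 50%. Line, set and exposure overlap in this design, so these shares do not add up.

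With the means of line and set and the density slope removed, but not exposure, the members were set against each other from array to array, so that genes that fell in hypoxia share the exposures in these values. The correlations are descriptions over 63 arrays that share lines, exposures and array sets. Esrrb had an r of 0.898 with Klf4, 0.839 with Dppa3 and 0.794 with Tbx3, and Tbx3 had 0.778 with Dppa3. Nanog, which also fell after 24 h in each genotype, had 0.373 with Esrrb and 0.389 with Dppa3, and 0.634 with Zfp42. Klf2 ran against them, at -0.619 with Tbx3, -0.601 with Dppa3 and -0.589 with Zfp42. Among the genes above the floor on all arrays and the members, the pattern most like that of Esrrb was that of Lrrc34 (r = 0.927) and then Camk2b (0.915). Dppa3 was most like Tcl1 (0.922) and Sox21 (0.913), Tbx3 like 2210409E12Rik (0.91) and Aard (0.852), and Klf4 like Esrrb (0.898). Klf2 was most like Elf3 (0.855) and Aldoc (0.816), Zfp42 like Mreg (0.821) and Zfhx2 (0.816), and Nanog like Tle5 (0.764) and Dus1l (0.709). Klf5 was most like Faap100 (0.742) and Lamc1 (0.74), Pou5f1 like Ctps2 (0.635) and Ppdpf (0.633), and the first Sox2 probe like Ptma (0.76) and Ankrd17 (0.749).

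The wider network after 24 h was read in 6 lists, whose counts stand beside rises and falls of 23.6% and 15.4% of all genes in reconstituted, 21.2% and 24.8% in G9a KO, 22.5% and 27.5% in JMJD1a KO, and 18% and 18.9% in wild-type cells. Of 13 other naive regulators, 9 were tested, and 2 rose and 4 fell in reconstituted, 1 and 3 in G9a KO, 0 and 5 in JMJD1a KO, and 1 and 2 in wild-type cells, with medians of -0.27, -0.22, -0.28 and -0.14. Tcl1, an activator of the kinase Akt, changed by -1.25 ± 0.14 in reconstituted, -1.08 ± 0.10 in G9a KO, -1.50 ± 0.10 in JMJD1a KO and -0.94 ± 0.10 in wild-type cells. Gbx2, a homeobox factor that acts downstream of Stat3, changed by -0.50, -0.49, -1.28 and -0.78 in the same order. Both were called in each genotype with and without the block. Fgf4, the growth factor that moves ES cells towards lineage commitment, differed at 4 h by -0.77, -1.35, -0.71 and -0.44, called in each genotype with the block too. At 24 h it differed by -0.46, -0.75, -0.95 and -0.20, called in all but wild-type cells, and in G9a KO cells it was 0.60 higher at 24 h than at 4 h (called).

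In the LIF and Stat3 pathway, 11 of 12 genes were tested, and 4 rose and 2 fell in reconstituted, 4 and 2 in G9a KO, 4 and 1 in JMJD1a KO, and 5 and 1 in wild-type cells after 24 h, with medians of 0.06, 0.18, 0.03 and 0.21. Socs3, a feedback inhibitor that Stat3 induces, rose by 0.88 ± 0.10 in reconstituted, 0.96 ± 0.07 in G9a KO, 0.92 ± 0.07 in JMJD1a KO and 0.77 ± 0.07 in wild-type cells. At 4 h it stood at 0.99, 0.98, 0.77 and 0.70. Pim1, of the same list, changed after 24 h by -1.22 in reconstituted and -0.90 in G9a KO cells. Both were called, with the block too (-0.88 and -0.48). In JMJD1a KO and wild-type cells Pim1 changed by -0.02 each, not called. Its 24 h minus 4 h difference was 0 in both, as for values at the floor. A fall could thus not be read there, and the genotypes cannot be compared in Pim1. Lifr, a subunit of the receptor for LIF, changed after 24 h by 0.06, -0.34, -0.40 and -0.36, called in the last 3, and with the block in G9a KO cells alone (-0.49).

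Formative markers, which come on as cells leave the naive state, had the highest median of the 6 lists in each genotype. The lists too were chosen with earlier results of these data known, so this order is a description. Of 10 genes, 8 were tested, and after 24 h 6 rose and 1 fell in reconstituted, 4 and 0 in G9a KO, 4 and 1 in JMJD1a KO, and 5 and 0 in wild-type cells, with medians of 0.84, 0.59, 0.45 and 0.73. Lef1, a Wnt-responsive factor, rose by 1.77 ± 0.20 in reconstituted, 1.64 ± 0.14 in G9a KO, 1.88 ± 0.14 in JMJD1a KO and 2.20 ± 0.14 in wild-type cells. Otx2, a homeobox factor of the early epiblast, rose by 1.08 ± 0.12, 1.06 ± 0.09, 1.14 ± 0.09 and 1.52 ± 0.09 in the same order. Fgf5, a growth factor of the epiblast, rose by 1.02, 1.37, 0.93 and 1.32, and Pou3f1 (Oct6) by 0.78, 0.85, 0.89 and 1.09. These were called with the block as well, except Pou3f1 in G9a KO cells (0.49). At 4 h Lef1 was already higher by 1.37, 1.34, 1.60 and 1.70 and Otx2 by 1.00, 0.62, 0.91 and 1.11.

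Of 20 general pluripotency genes, 15 were tested, and 1 rose and 5 fell in reconstituted, 2 and 5 in G9a KO, 2 and 7 in JMJD1a KO, and 2 and 4 in wild-type cells, with medians of -0.08, -0.12, -0.14 and -0.04. Gdf3, a TGF-beta family ligand, changed by -0.05 in the reconstituted line, not called, and by -0.37 in G9a KO, -0.53 in JMJD1a KO and -0.37 in wild-type cells. Nodal, another ligand of that family, was lower at 4 h, by -0.71, -0.80, -0.72 and -0.59, and at 24 h differed by -0.08, -0.02, -0.03 and 0.12, none called. Of 9 factors that drive exit from the naive state, 6 were tested, and 2 rose and 2 fell in reconstituted, 1 and 2 in G9a KO, 0 and 2 in JMJD1a KO, and 0 and 2 in wild-type cells, with medians of 0.11, -0.06, -0.17 and -0.02. Of 14 other Klf genes, 10 were tested, and 3 rose and 0 fell in reconstituted, 4 and 0 in G9a KO, 3 and 2 in JMJD1a KO, and 3 and 0 in wild-type cells, with medians of 0.22, 0.23, 0.08 and 0.15. Klf6 rose by 0.71, 0.85, 0.68 and 0.84, called in each genotype with and without the block, in the direction of Klf2 and not of Klf4.

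**Figure D4:**
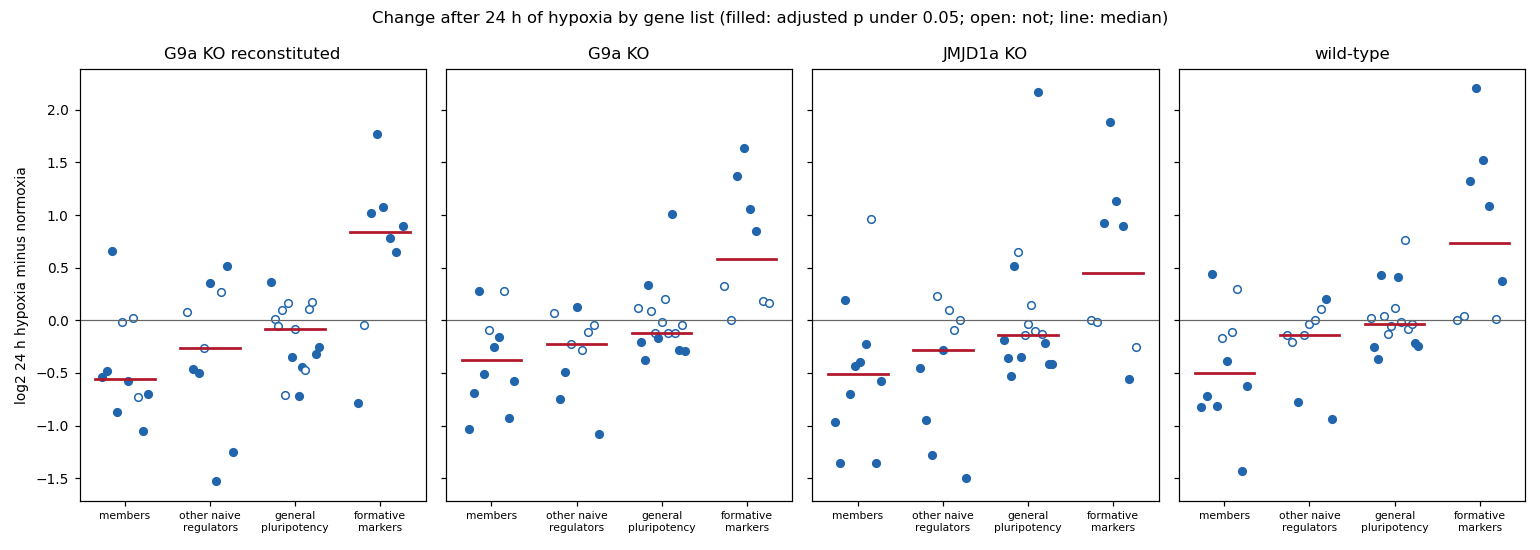
Log2 24 h hypoxia minus normoxia (y axis) of the 10 members and of the tested genes of 3 lists (x axis) in reconstituted, G9a KO, JMJD1a KO and wild-type cells (panels), filled where the adjusted p is under 0.05, with lines at the medians. The members have medians of -0.56, -0.38, -0.51 and -0.50 and the formative markers medians of 0.84, 0.59, 0.45 and 0.73 in these genotypes.

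Summed markers of mesoderm and of neural cells were also higher in hypoxia. The summed intensity above the floor of the 5 mesoderm genes on the array ran in the reconstituted line from 39 to 74 in normoxia, 193 to 220 after 4 h and 114 to 205 after 24 h. In G9a KO cells it ran from 73 to 109, 188 to 234 and 128 to 222, in JMJD1a KO cells from 0 to 41, 85 to 276 and 85 to 247, and in wild-type cells from 0 to 24, 34 to 200 and 46 to 159. Mesp1, Mixl1 and Hand2 stayed at the floor on every array. Sums of the 5 neural markers (Sox1 and Pax3 at the floor) ran in the reconstituted line from 75 to 131 in normoxia, 141 to 144 after 4 h and 122 to 154 after 24 h. In G9a KO cells they ran from 87 to 125, 175 to 236 and 134 to 236, in JMJD1a KO cells from 164 to 217, 234 to 319 and 206 to 273, and in wild-type cells from 87 to 139, 121 to 218 and 143 to 227. The exposures overlapped for neural markers at 24 h in reconstituted and JMJD1a KO cells and at 4 h in wild-type cells. Sums of the 8 fibroblast markers ran from 34 to 274 in hypoxia and 47 to 201 in normoxia (Col3a1, Dcn, Lum and Postn at the floor). In the reconstituted line they ran from 72 to 144 in normoxia and 143 to 186 after 24 h. G9a KO cells had 47 to 82 and 82 to 126, and JMJD1a KO cells 69 to 100 and 59 to 122. Wild-type cells had 91 to 201 and 160 to 274. The 24 h ranges thus lay higher in all but JMJD1a KO cells, with ends that met or overlapped those of normoxia. The 7 primitive endoderm markers (Foxa2 and Pdgfra at the floor) ran in the reconstituted line from 53 to 98 in normoxia, 110 to 128 after 4 h and 53 to 92 after 24 h. In G9a KO cells they ran from 39 to 122, 91 to 163 and 65 to 133. JMJD1a KO cells had 64 to 107, 99 to 137 and 68 to 102, and wild-type cells 78 to 121, 97 to 194 and 53 to 187. The 4 h ranges thus lay higher than in normoxia in each genotype, with overlap in all but the reconstituted line. The 7 trophectoderm markers ran from 799 to 1756 in hypoxia and 610 to 2009 in normoxia (Elf5 and Hand1 at the floor). The part of these markers in the changes of the members was not tested, and in bulk RNA fewer cells of a kind and less RNA per cell cannot be told apart.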

How the data were processed

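RNA of 63 cultures was measured on Illumina expression arrays, 1 array each. The authors deposited processed intensities on a linear scale for 25697 probes. BeadStudio is named in the submitters' processing notes. Its version is not given in the sources used here, nor is any scaling between arrays. The lowest value, 20, is each array's floor, and 40.3 to 46.4% of probes per array lay above it. On 1 array (G9a KO2, 4 h, density 2) the most common value was 21.9, which was taken as its floor, with 57.8% of its probes at or under it. The number of arrays limits the precision. A second table (126 per-sample columns of signal and detection p) was not used, as no label ties its columns to samples.

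Values were taken to log2 and quantile-normalized here, with values at the floor set back to it. A probe was kept if above the floor on all 3 arrays of any line and exposure (12754 probes). Names came from the platform annotation (23978 probes with 1 symbol, 1719 without, 23962 updated by Entrez ID), and each gene (8740 in all) was read by its brightest probe on average. Tests used limma 3.58.1 in R 4.3.3 with Benjamini-Hochberg adjustment over all genes at a threshold of 0.05, on 21 means of line and exposure plus density, or on line means for knockouts against wild type. The code was tested on simulated data.

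Same-numbered cultures share only their density. Over 63 pairs the median correlation of their deviations was 0.236 and the lowest -0.161, so they were not treated as pairs. Within a line and exposure, r between arrays was 0.941 to 0.997. No pair of arrays held identical values. Other scalings, filters, probe rules, blocks and units were tried, and each line and density was left out. Leaving out lines between genotypes, leaving out the array with the higher floor, and testing further probes were chosen after seeing the data.

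The genes and lists were chosen with earlier results of these data known. Named besides the 10 genes were Kdm3a and Ehmt2, called list genes among the 3 largest changes of a list in a comparison, the 2 genes most like each member, and markers at the floor.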

Additional observations from a re-analysis of the deposited data

Results flagged for a closer look

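In 4 of 90 groups of 6 cultures 1 culture stood apart from the other 5 by Dixon's criterion, which chance alone meets in about 1 group in 20. Esrrb in JMJD1a KO cells after 4 h was lowest in JMJD1a KO2 at density 6, at 11.85, where the next culture was at 12.1 and the highest at 12.24. That array is the 1 of its line and exposure in array set 5, and the part of the set in the value was not tested. Nanog in G9a KO normoxia was highest in G9a KO2 at density 2, at 12.98, where the next was at 12.69 and the lowest at 12.58. The first Sox2 probe in G9a KO cells after 4 h was lowest in G9a KO1 at density 2, at 11.48, where the next was at 11.84 and the highest at 11.99. That array too is the 1 of its line and exposure in array set 5, and set accounts for 99.2% of this probe's variance. Pou5f1 in JMJD1a KO cells after 4 h was highest in JMJD1a KO1 at density 4, at 12.24, where the next was at 12.1 and the lowest at 12.03.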

How the results depend on the processing

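Array set, the 2 lines per genotype and the 3 cultures per line and exposure limit these results; the cause of each shift below was not tested. Counts are members called of 10. For the alternatives other than the array-set block, the share of all genes called is not given. The counts show how calls depend on the setting and are not a result about the members. With array set as a block the counts were 0 (5 without it) for reconstituted cells at 4 h, 1 (6) at 4 h and 3 (8) at 24 h for G9a KO cells, 1, 0 and 0 (2 each) for G9a KO against wild type in normoxia, at 4 h and at 24 h, 0, 1 and 0 (4, 7 and 5) for the reconstituted line against G9a KO1, and 5 (2) for density. Esrrb was then at -0.065 in reconstituted cells at 4 h and at -0.0811 in the reconstituted line against G9a KO1 at 4 h. For G9a KO against wild type at the 3 exposures, genes above the floor on all arrays gave 5, 6 and 4, no filter gave 0 each, and cultures as the unit gave 8, 9 and 9; the mean of probes gave 1 at 24 h. Cultures as the unit gave 3, 3 and 5 (0 each) for JMJD1a KO against wild type. This setting takes cultures of 1 line as independent, which they are not. The mean of probes gave 5 (3) in wild-type cells at 4 h, and Klf4 at 0.38 in reconstituted cells at 4 h. With line and density as a replicate block the 24 h counts were 7 in reconstituted, 8 in G9a KO, 10 in JMJD1a KO (9 without it) and 7 in wild-type cells, and no other count changed. Leaving out 1 line or density gave 6 to 8 in reconstituted, 4 to 8 in G9a KO, 7 to 10 in JMJD1a KO and 7 to 8 in wild-type cells at 24 h, and 0 to 7, 1 to 6, 0 to 3 and 1 to 2 at 4 h. From 4 h to 24 h it gave 3 to 7 in G9a KO, 6 to 7 in JMJD1a KO and 5 to 7 in wild-type cells. It gave 0 to 4, 1 to 6 and 0 to 0 for G9a KO and 0 to 0, 0 to 1 and 0 to 1 for JMJD1a KO against wild type, 1 to 5, 5 to 7 and 4 to 6 for the reconstituted line against G9a KO1, and 0 to 5 for density. In wild-type cells Klf5 differed between 24 h and 4 h by -0.4946 without WT1 to 0.03004 without WT2. In JMJD1a KO cells the first Sox2 probe ranged over -1.434 to 3.365 (24 h minus normoxia) and -1.659 to 2.436 (24 h minus 4 h), the low ends without JMJD1a KO2. Without the array with the higher floor, Klf4 (-0.34) and Zfp42 (-0.14) lost their 24 h minus 4 h call in G9a KO cells. Of 2650 values of single members under alternatives, 2365 kept direction and side of the threshold, 179 lost the call, 100 gained it and 6 reversed.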
